A study of Mus musculus with 8 samples.

Results

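The genes described here are 10 regulators of apoptosis: the prosurvival BCL2 relatives Bcl2, Bcl2l1 and Mcl1, the BH3-only genes Bcl2l11, Bid and Bad, the effector gene Bak1, the inhibitor of apoptosis (IAP) genes Xiap and Birc2, and Cflar, which encodes the caspase-8 regulator c-FLIP. They were chosen by name, and each was read on its brightest probe set that the array annotation maps to that gene alone. All 10 were found among 18193 such genes, on 40 probe sets, and all 10 passed the filter on low signal with 11345 genes tested. Whole B16F1 melanoma tumours, grown from a C57BL/6-derived mouse melanoma line under the skin of the right hind limb, had their RNA read on 8 Affymetrix whole-genome mouse arrays. Tumours had been grown in TNFR KO hosts (B6;129S-Tnfrsf1a[tm1Imx] Tnfrsf1b[tm1Imx]/J breeding stock, lacking both TNF receptors) or in wild-type C57BL/6-NCr hosts (WT), mice of 8 to 12 weeks. They received a single 20 Gy dose of X-rays or none, and were taken 5 h later. The groups are thus TNFR KO irradiated, TNFR KO untreated, WT irradiated and WT untreated, each 1 pool of RNA from several tumours measured on 2 arrays that the labels call technical replicates. The receptor deletion is in every host cell, not in the injected tumour cells, and the labels describe the knockout hosts as C57BL/6 although the stock name gives a mixed background with 129.

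BCL2 proteins decide whether the outer membrane of mitochondria is opened. Bcl2, Bcl-xL (from Bcl2l1) and Mcl1 hold it closed, BH3-only proteins sense damage and bind them, and Bak1 with its relative Bax forms the pores. Downstream, XIAP blocks caspases directly, while cIAP1 (from Birc2) and c-FLIP act at the TNF receptor complex, where they restrain the death signal that caspase-8 would carry, and Bid links caspase-8 to mitochondria. Ionising radiation acts on this family in part through p53, which induces BH3-only genes, and TNF acts in part through NF-κB, which induces Cflar and IAP genes.

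Melanoma identity and the radiation label could both be read from the arrays. All 7 melanocyte markers were above the filter in every pool, with summed signals of 150360 to 158964 on TNFR KO irradiated arrays, 148884 to 157856 on TNFR KO untreated, 160416 to 180806 on WT irradiated and 144990.1 to 155301 on WT untreated arrays. Between hosts 1 of the 7 was called: Mitf, the transcription factor of the melanocyte lineage, averaged 4886 and 6009 in irradiated and untreated TNFR KO tumours and 8186 and 12313 in WT tumours (log2 difference -0.89 ± 0.17, adjusted p = 0.00317). Cdkn1a, the p21 gene that p53 induces, averaged 19220 in irradiated and 5549 in untreated TNFR KO tumours, and 19252 in irradiated and 4997 in untreated WT tumours (log2 difference over both hosts 1.87 ± 0.16, adjusted p = 0.00032), and the p53 targets Ccng1 and Mdm2 rose by 1.64 ± 0.20 and 0.97 ± 0.21 (adjusted p = 0.00245 and 0.0437). Tnfrsf1a averaged 4196 and 3409 in irradiated and untreated TNFR KO tumours, and 3874 and 2702 in WT tumours. The tumour cells keep their own receptor genes, so this level does not check the host genotype. Tnfrsf1b averaged 128 and 127 in irradiated and untreated TNFR KO tumours and 416 and 191 in WT tumours, a difference of -1.06 ± 0.23 on the log2 scale (adjusted p = 0.00708). Host and array preparation cannot be told apart in this or any other host difference given here. The pool means of the poly-A spike-in controls dap, lys, phe and thr were 7.6 to 52 on TNFR KO arrays and 2743 to 27784 on WT arrays, and an 18S ribosomal RNA control averaged 814 and 651 in irradiated and untreated TNFR KO tumours and 358 and 256 in WT tumours. Within WT these spike-in controls were also higher in the irradiated than in the untreated pool. There dap averaged 27784 and 16989, lys 9373 and 4923, phe 6047 and 2743, and thr 11905 and 5687.5. On TNFR KO arrays they were too low for such a comparison, but the 18S control was higher in the irradiated pool of each host. The control cre averaged 18367 and 16366.5 in irradiated and untreated TNFR KO tumours, and 20530 and 15624 in WT tumours. The control bioB averaged 345 and 334 in TNFR KO tumours, and 457 and 348.5 in WT tumours. A difference in array preparation was thus not separated from radiation in either host. All p-values are from 2-sided limma tests with Benjamini-Hochberg adjustment over all 11345 genes, log2 differences are of log2(signal + 16) and carry their standard error, and signals are in MAS5 units, so levels are compared between tumours and never between genes. With 1 pool a group there is no spread between mice: radiation over both hosts and host over both treatments were tested on the 4 pool means, and single pools were compared only against the spread of duplicate arrays.

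The apoptosis regulators differed by less than 2-fold in every comparison of their brightest probe sets, with radiation and with the host. None of the 10 passed an adjusted p of 0.05 for radiation over both hosts, where 1.90% of all tested genes did; Bcl2l1 and Bad had an unadjusted limma p under 0.05. Between hosts, 3 of 10 were called, all lower in TNFR KO tumours: Xiap (1.87-fold), Birc2 (1.5-fold) and Bcl2 (1.38-fold). That share lies at the background of this comparison, in which 30.9% of all tested genes were called and 18.9% were called lower. In single-pool comparisons no member was called on its brightest probe set at an adjusted p under 0.05 together with a 2-fold difference, against 1.37% of genes for radiation in TNFR KO, 2.45% for radiation in WT, 8.22% between irradiated hosts, 8.31% between untreated hosts and 2.21% for the difference between the radiation effects. Other probe sets of Bcl2, Xiap and Cflar did pass both thresholds in single-pool comparisons, as given below. The median log2 difference of the members was 0.11 for radiation over both hosts and -0.18 for TNFR KO against WT hosts, beside -0.02 and 0.09 for all tested genes. Xiap had the widest range over the 4 pools, 2.23-fold, which exceeded that of 86.9% of tested genes. Bcl2l11 had the narrowest, 1.17-fold, which exceeded that of 5.77%.

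**Figure D1:**
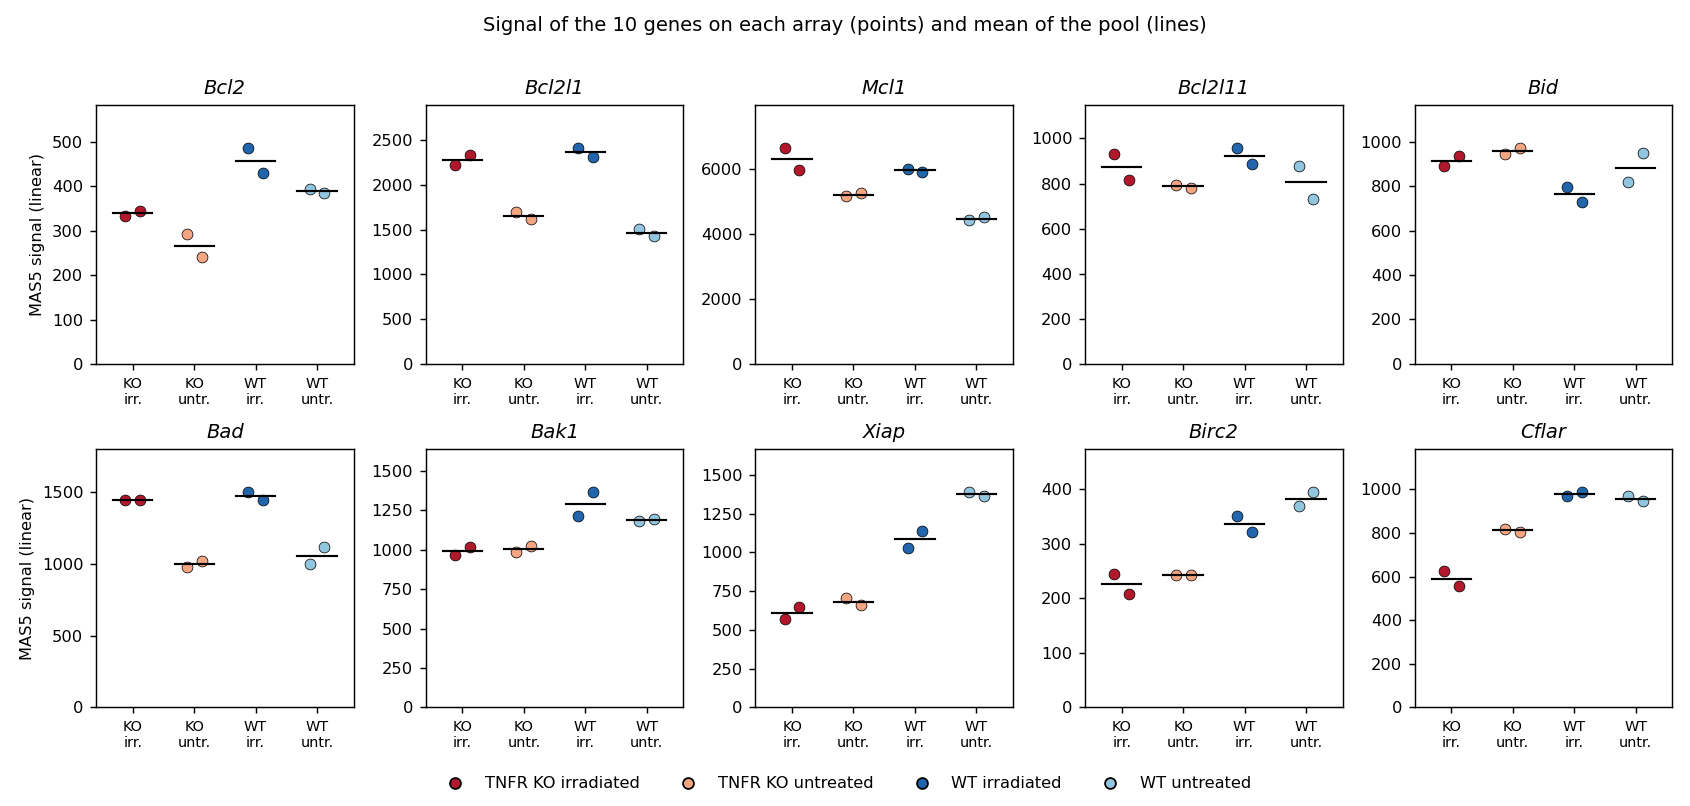
MAS5 signal (vertical axis, linear, from 0) of the brightest probe set of each of the 10 genes in TNFR KO irradiated, TNFR KO untreated, WT irradiated and WT untreated tumours; points are the 2 arrays of a pool and lines their mean. Bcl2l1, Mcl1 and Bad sit higher in both irradiated pools than in both untreated pools, and Bcl2, Bak1, Xiap, Birc2 and Cflar sit lower on all 4 TNFR KO arrays than on all 4 WT arrays.

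The starts of Xiap, Birc2, Bcl2 and Cflar are shown because the first 3 were the members called between hosts. Cflar was added as the only member whose radiation effects differed between hosts at an adjusted p under 0.05 on its brightest probe set. That difference was under 2-fold and did not pass under several of the alternatives given below. All 10 members were matched by symbol to 17 windows of RefSeq (GRCm38.p6), each 250 bases before to 50 bases after an annotated start; where a gene has several, the one with most motif matches is printed. Capitals mark matches, on either strand, to the NF-κB consensus, the p53 half-site, the GC box (letters GGGCGG), the CCAAT box (spelled by its name), the TATA box (letters TATAAA) and the cAMP response element (letters TGACGTCA). These were searched separately and matches may overlap. The windows are, on the plus strand for Xiap (chrX:42068148-42068447) and Cflar (chr1:58711241-58711540), and on the minus strand for Birc2 (chr9:7836757-7837056) and Bcl2 (chr1:106714241-106714540), 5′ to 3′:
Xiap: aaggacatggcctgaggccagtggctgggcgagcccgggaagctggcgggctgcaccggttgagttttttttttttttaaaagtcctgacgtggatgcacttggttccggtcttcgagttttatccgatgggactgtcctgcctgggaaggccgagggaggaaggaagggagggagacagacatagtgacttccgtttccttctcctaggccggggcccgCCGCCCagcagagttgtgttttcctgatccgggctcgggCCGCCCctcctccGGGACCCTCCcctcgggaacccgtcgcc
Birc2: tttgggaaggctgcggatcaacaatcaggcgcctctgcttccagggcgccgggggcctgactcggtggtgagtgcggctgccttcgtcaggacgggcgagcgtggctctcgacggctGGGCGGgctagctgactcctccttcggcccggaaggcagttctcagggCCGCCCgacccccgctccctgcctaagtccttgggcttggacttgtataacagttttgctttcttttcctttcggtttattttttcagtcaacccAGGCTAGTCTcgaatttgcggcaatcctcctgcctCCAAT
Bcl2: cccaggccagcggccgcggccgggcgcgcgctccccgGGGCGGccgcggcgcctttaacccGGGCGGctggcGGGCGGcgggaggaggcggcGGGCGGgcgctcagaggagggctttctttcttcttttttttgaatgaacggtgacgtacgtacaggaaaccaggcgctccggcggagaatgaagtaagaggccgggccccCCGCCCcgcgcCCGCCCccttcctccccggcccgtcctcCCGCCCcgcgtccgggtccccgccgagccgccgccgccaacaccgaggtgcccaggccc
Cflar: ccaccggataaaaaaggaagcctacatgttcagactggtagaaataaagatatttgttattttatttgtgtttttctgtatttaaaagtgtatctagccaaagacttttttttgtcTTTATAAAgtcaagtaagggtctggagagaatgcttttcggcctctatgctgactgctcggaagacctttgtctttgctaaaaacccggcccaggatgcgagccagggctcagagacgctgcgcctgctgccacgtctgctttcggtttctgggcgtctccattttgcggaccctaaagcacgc
The Xiap window held 1 match to the NF-κB consensus, beginning 23 bases from the start counted as 1, and 2 GC boxes. The Birc2 window held 1 p53 half-site, 2 GC boxes and 1 CCAAT box, the Bcl2 window 7 GC boxes, and the Cflar window 2 overlapping TATA box matches, 1 on each strand. The second Birc2 window, not printed, held 1 cAMP response element. Over all 32851 windows of this length 8.46% held the NF-κB consensus, 8.36% the p53 half-site, 35.7% a GC box, 37.4% a CCAAT box, 13.6% a TATA box and 1.79% a cAMP response element. Of the 17 windows of the members, 2 held NF-κB matches (Bcl2l1 and Xiap), 1 the p53 half-site (Birc2) and 9 a GC box (7 genes). Where a gene has several windows, the printed one was picked for its matches, so it is not comparable with these shares. GC content ran from 37.7% to 76.0% over the 17 windows and was 45% for Cflar, 61.7% for Xiap, 60% for Birc2 and 76.0% for Bcl2. Matches describe the letters of these windows only.

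The prosurvival genes were examined first. Bcl2l1, whose product Bcl-xL protects mitochondria in many tissues and in maturing red cells, read 2222 and 2337 on the 2 TNFR KO irradiated arrays, 1693 and 1614 on TNFR KO untreated, 2407.5 and 2315 on WT irradiated and 1506 and 1424 on WT untreated arrays. Irradiated and untreated arrays did not overlap in either host. The log2 difference between irradiated and untreated tumours was 0.57 ± 0.16 over both hosts (1.49-fold, 95% interval 0.21 to 0.93), and the unadjusted p of 0.00549 became 0.118 after adjustment, so the gene was not called. With a pseudocount of 64 in place of 16 it passed (log2 difference 0.56, adjusted p = 0.0317), and with the limma-trend prior as well (adjusted p = 0.00354). Scaling changed the radiation calls of all tested genes in different ways. With quantile normalization only 2 of all tested genes were called over both hosts, against 216 as reported. With median centring 301 were called, 50.8% of them higher, against 81.5% as reported. Median centring moved the median of all tested genes by -0.144 over both hosts and by -0.258 in WT tumours. Against duplicate arrays the difference was 0.46 ± 0.06 in TNFR KO tumours (adjusted p = 0.00731) and 0.68 ± 0.06 in WT tumours (adjusted p = 0.00221), both under 2-fold. The gap between these effects, -0.22 ± 0.09, did not pass (adjusted p = 0.173, 95% interval -0.45 to 0). Its other 2 probe sets above the filter also read higher after irradiation, by 0.39 and 0.57 over both hosts. On 1420887_a_at the difference was 0.57 in TNFR KO tumours (adjusted p = 0.00866 in a fit over all single-gene probe sets) and 0.20 in WT tumours (adjusted p = 0.0967). Erythroid transcripts were also brighter on irradiated arrays: the summed signal of Alas2, Hbb-b2 and Slc4a1, all 3 matched of 5 listed, was 4479 to 5134 on TNFR KO irradiated and 578 to 645 on TNFR KO untreated arrays, and 1876 to 1913 on WT irradiated and 492 to 607 on WT untreated arrays. The part of red cell precursors in the Bcl2l1 signal was not tested. In whole tumours, fewer cells of a type and less RNA per cell cannot be told apart.

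Mcl1 encodes a short-lived prosurvival protein, of which only the RNA was measured here. Its brightest probe set read 6652 and 5982 on TNFR KO irradiated, 5180.1 and 5269 on TNFR KO untreated, 6012 and 5932 on WT irradiated and 4439 and 4524 on WT untreated arrays. Every irradiated array lay above every untreated one, and the log2 difference of 0.34 ± 0.16 over both hosts was not called (adjusted p = 0.324). Against duplicate arrays it was 0.27 ± 0.07 in TNFR KO tumours (adjusted p = 0.037) and 0.41 ± 0.07 in WT tumours (adjusted p = 0.0109). The 5 other probe sets did not all follow. The probe set 1416881_at differed by 0.29 over both hosts, whereas the other 4 differed by between -0.01 and 0.08. Those 4 all had a negative log2 difference in TNFR KO tumours (-0.18 to -0.05) and a positive one in WT tumours (0.05 to 0.35). On 1456381_x_at, Mcl1 read 1823 and 2009.8 on TNFR KO irradiated and 2242.5 and 2107 on TNFR KO untreated arrays, against 2951.5 and 2971 on WT irradiated and 2345.5 and 2296 on WT untreated arrays. The difference between its radiation effects was -0.53 (adjusted p = 0.0464 in a fit over all single-gene probe sets, under 2-fold). The direction between hosts also depended on the probe set: the brightest gave 0.15 ± 0.16 for TNFR KO against WT (adjusted p = 0.498), and the other 5 gave -0.47 to -0.02. Probe sets with the suffix _x may also read related sequences.

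Bcl2, the founding member of the family and a gene that melanocytes depend on, was lower in TNFR KO tumours. It read 334 and 344 on TNFR KO irradiated, 293 and 241 on TNFR KO untreated, 485 and 429 on WT irradiated and 393 and 385 on WT untreated arrays, so that all 4 TNFR KO arrays lay below all 4 WT arrays. The log2 difference between hosts was -0.47 ± 0.16 (adjusted p = 0.0489), close to the threshold. The call ended with quantile normalization (-0.34, adjusted p = 0.127), with median-centred arrays (-0.55, adjusted p = 0.0757), with the mean of its probe sets (-0.25, adjusted p = 0.307), and whichever of the 8 arrays was left out (-0.54 to -0.40). Against duplicate arrays it was -0.41 ± 0.11 between irradiated and -0.53 ± 0.11 between untreated pools (adjusted p = 0.0181 and 0.00824). The 2 dimmest of its 4 probe sets above the filter differed by -0.47 and -0.30 between hosts, while 1443837_x_at went the other way over both treatments (0.33). On that probe set the TNFR KO untreated arrays stood apart from the rest at 261 and 255, against 142 and 144.5 on TNFR KO irradiated, 165 and 177 on WT irradiated and 141 and 126 on WT untreated arrays. Irradiated against untreated, it differed by -0.78 in TNFR KO tumours (adjusted p = 0.00487 in the fit over probe sets) and by 0.32 in WT tumours (adjusted p = 0.0364), and the difference between these effects, -1.11, passed at 2-fold (adjusted p = 0.00925). The brightest probe set gave 0.34 ± 0.11 in TNFR KO tumours (adjusted p = 0.0689) and 0.22 ± 0.11 in WT tumours (adjusted p = 0.174). The radiation difference of Bcl2 on its brightest probe set was 0.28 ± 0.16 over both hosts (95% interval -0.08 to 0.64, adjusted p = 0.429).

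Of the BH3-only genes, only Bad gave a radiation difference that exceeded the spread of duplicate arrays in both hosts. Bad, whose product is held inactive by survival kinases and otherwise binds Bcl2 and Bcl-xL, read 1448 and 1444 on TNFR KO irradiated, 978 and 1022 on TNFR KO untreated, 1503 and 1443 on WT irradiated and 997 and 1115 on WT untreated arrays. Irradiated and untreated arrays were apart in each host, and the hosts overlapped. The log2 difference was 0.53 ± 0.07 in TNFR KO and 0.48 ± 0.07 in WT tumours (adjusted p = 0.00697 and 0.00865, both under 2-fold), and 0.50 ± 0.16 over both hosts (adjusted p = 0.157, not called). With the limma-trend prior it passed (adjusted p = 0.0242). The counts given above for all tested genes under quantile normalization and median centring apply to radiation over both hosts for Bad as well. On the second probe set of Bad, the same comparison gave 0.46 in TNFR KO tumours and 0.04 in WT tumours, where the arrays read 1168.5 and 1139.5 irradiated and 1123 and 1124 untreated.

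Bcl2l11, the gene of Bim, which binds all prosurvival relatives, differed least between pools. It read 933 and 815 on TNFR KO irradiated, 796 and 781 on TNFR KO untreated, 956 and 887 on WT irradiated and 879 and 733 on WT untreated arrays, so that irradiated arrays lay above untreated ones within each host by a small margin, and the hosts overlapped. The radiation difference over both hosts was 0.17 ± 0.16 with a 95% interval of -0.19 to 0.52. This interval rests on 1 residual degree of freedom and holds no spread between mice, so it sets no limit on the effect. All 5 probe sets above the filter had a positive radiation difference (0.15 to 0.76), the widest on 1426334_a_at, the dimmest of them (0.76, adjusted p = 0.208). In the fit over probe sets, 1426334_a_at differed by 0.88 in WT (adjusted p = 0.0246) and 0.64 in TNFR KO tumours (adjusted p = 0.0603). On 1456006_at the difference was 0.43 in TNFR KO (adjusted p = 0.0441) and 0.18 in WT tumours (adjusted p = 0.278). All were under 2-fold, and no other Bcl2l11 probe set passed in either host. Bid, which caspase-8 cleaves to engage mitochondria, read 891 and 934 on TNFR KO irradiated, 942 and 969.6 on TNFR KO untreated, 798 and 729 on WT irradiated and 819 and 947 on WT untreated arrays, and within each host irradiated arrays lay below untreated ones. Its radiation difference was -0.13 ± 0.16 and its difference between hosts 0.18 ± 0.16 (adjusted p = 0.722 and 0.399). All 3 probe sets of Bid read higher in TNFR KO tumours, by 0.18 to 0.33, and none passed.

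Bak1, which forms pores in the outer mitochondrial membrane, read 967 and 1019 on TNFR KO irradiated, 985 and 1025 on TNFR KO untreated, 1214 and 1367 on WT irradiated and 1184 and 1193.5 on WT untreated arrays. All 4 TNFR KO arrays lay below all 4 WT arrays, by -0.31 ± 0.16 on the log2 scale (adjusted p = 0.171, not called). A dimmer second probe set went the other way (0.21). Irradiated and untreated tumours differed by 0.05 ± 0.16 (95% interval -0.31 to 0.41).

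**Figure D2:**
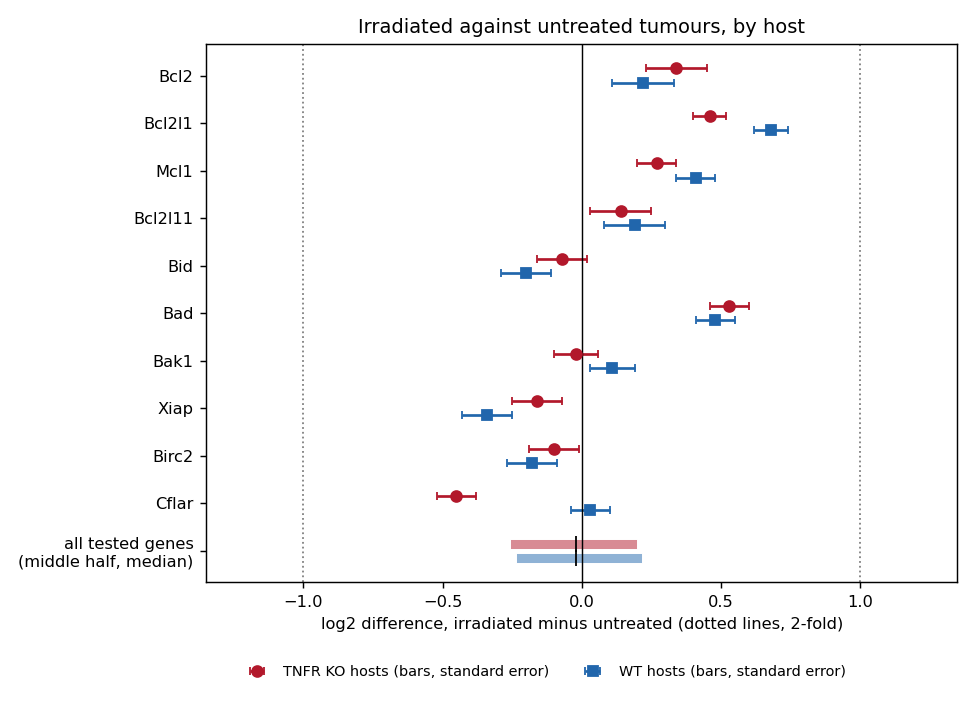
log2 difference between irradiated and untreated tumours (horizontal axis) of each of the 10 genes in TNFR KO hosts (circles) and WT hosts (squares), with the standard error against duplicate arrays; the bottom bars span the interquartile range of all tested genes and the tick marks their median. Bcl2l1, Mcl1 and Bad lie above 0 in both hosts, and Cflar is at -0.45 in TNFR KO tumours and 0.03 in WT tumours.

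Both IAP genes were called lower in TNFR KO tumours. Xiap encodes the IAP that binds and inhibits active caspases. It read 572 and 649 on TNFR KO irradiated, 708 and 658 on TNFR KO untreated, 1030 and 1141 on WT irradiated and 1391 and 1366 on WT untreated arrays. The 4 TNFR KO arrays lay far below the 4 WT arrays, and within each host the irradiated arrays lay below the untreated ones. Over both treatments Xiap was 1.87-fold lower in TNFR KO tumours (log2 difference -0.91 ± 0.16, adjusted p = 0.00254). The call held whichever array was left out (-0.95 to -0.86) and ended when dim genes were tested as well (-0.91, adjusted p = 0.0788), a setting in which no gene was called between hosts. Untreated pools differed by -1.0 ± 0.09, just short of 2-fold, and irradiated pools by -0.81 ± 0.09 (adjusted p = 0.000435 and 0.000765). Of the other 2 probe sets above the filter, 1456088_at differed by -0.66 between hosts and 1450232_at by 0.10, and 4 further probe sets were too dim to test. Between untreated pools 1456088_at passed at 2-fold (-1.02, adjusted p = 0.0012 in a fit over all single-gene probe sets). Between irradiated pools it did not pass (-0.30, adjusted p = 0.0737). The probe set 1450232_at differed by 0.01 between untreated and 0.18 between irradiated pools. Radiation gave Xiap -0.16 ± 0.09 in TNFR KO tumours (adjusted p = 0.239) and -0.34 ± 0.09 in WT tumours (adjusted p = 0.0388, under 2-fold), and the effects of the hosts were not shown to differ (0.18 ± 0.13, adjusted p = 0.383).

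Birc2 encodes cIAP1, the ubiquitin ligase recruited to TNF receptor 1 that keeps RIPK1 in a survival complex. It read 245 and 207.5 on TNFR KO irradiated, 243 and 243 on TNFR KO untreated, 351.5 and 321 on WT irradiated and 369 and 395 on WT untreated arrays. The hosts did not overlap, and Birc2 was 1.5-fold lower in TNFR KO tumours (log2 difference -0.58 ± 0.16, adjusted p = 0.0207). The call ended with quantile normalization (-0.46, adjusted p = 0.0677), when dim genes were tested as well (adjusted p = 0.142), and when either TNFR KO irradiated replicate 2 (-0.52) or WT irradiated replicate 1 (-0.55) was left out. Birc2 has a single probe set that names it alone, so this has no second reading. The radiation difference was -0.14 ± 0.16 over both hosts (95% interval -0.49 to 0.22).

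Cflar encodes c-FLIP, the inactive relative of caspase-8 that NF-κB induces and that keeps caspase-8 in check at death receptors. Its brightest probe set read 625 and 555 on TNFR KO irradiated, 819.8 and 806 on TNFR KO untreated, 969 and 989 on WT irradiated and 970.1 and 946 on WT untreated arrays. The TNFR KO irradiated pool was the lowest, the TNFR KO untreated pool came next, and both WT pools were above them and overlapped each other. Irradiated against untreated, Cflar differed by -0.45 ± 0.07 in TNFR KO tumours (adjusted p = 0.0097) and by 0.03 ± 0.07 in WT tumours (adjusted p = 0.775). The difference between these effects was -0.49 ± 0.10 (adjusted p = 0.0403); it was under 2-fold, at a threshold that 9.55% of all tested genes passed without regard to fold, and Cflar was the only member to pass it on its brightest probe set. It no longer passed with median-centred arrays (-0.26, adjusted p = 0.159), with dim genes tested as well (adjusted p = 0.128), with the mean of its probe sets (-0.11, adjusted p = 0.747), with the replicate block (adjusted p = 0.0676), or without any 1 array other than TNFR KO irradiated replicate 1 (adjusted p = 0.0835 to 0.115). Irradiated pools of the hosts differed by -0.72 ± 0.07, a 1.65-fold lower level in TNFR KO tumours, and untreated pools by -0.23 ± 0.07 (adjusted p = 0.000558 and 0.0372). Over both treatments the host difference was -0.48 ± 0.18 and missed the threshold (adjusted p = 0.0646), passing with the mean of its probe sets (-0.49, adjusted p = 0.0323), a pseudocount of 64 (-0.45, adjusted p = 0.0274) or the limma-trend prior (-0.48, adjusted p = 0.012).

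Of the 3 other Cflar probe sets above the filter, 2 gave larger host differences than the brightest. The probe set 1449317_at read 397 and 349 on TNFR KO irradiated, 391.5 and 436 on TNFR KO untreated, 877 and 969 on WT irradiated and 661 and 875 on WT untreated arrays, a log2 difference of -1.06 between hosts (adjusted p = 0.011 in the fit over probe sets). The difference on 1425687_at was -0.90 (adjusted p = 0.014) and on 1425686_at -0.47 (adjusted p = 0.0954). Between irradiated pools 1449317_at (-1.27, adjusted p = 0.00122) and 1425687_at (-1.01, adjusted p = 0.0129) passed at 2-fold in that fit. There 1425686_at was under 2-fold (-0.67, adjusted p = 0.0142). Between untreated pools 1449317_at, 1425687_at and 1425686_at were all under 2-fold (-0.86, -0.78 and -0.27). All 4 probe sets above the filter were thus lower in TNFR KO tumours. Their differences between radiation effects were all negative, -0.49 to -0.23, and in the fit over probe sets none passed, the brightest included (adjusted p = 0.0572).

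**Figure D3:**
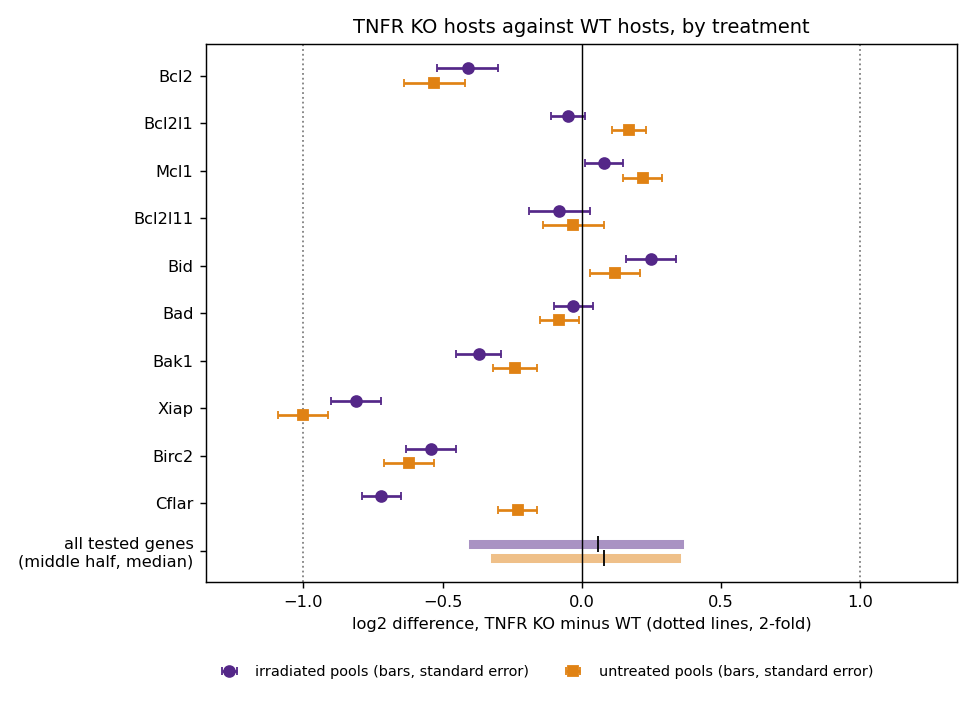
log2 difference between TNFR KO and WT hosts (horizontal axis) of each of the 10 genes in irradiated pools (circles) and untreated pools (squares), with the standard error against duplicate arrays; the bottom bars span the interquartile range of all tested genes and the tick marks their median. Xiap, Birc2 and Bcl2 are lower in TNFR KO tumours with and without irradiation, and Cflar is at -0.72 in irradiated and -0.23 in untreated pools.

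Among the members, 5 (Bcl2, Bak1, Xiap, Birc2 and Cflar) read lower on all 4 TNFR KO arrays than on all 4 WT arrays on the brightest probe set, and 0 read higher on all 4. Among all tested genes 44.2% were apart in this way, and 21.7% of all were lower in TNFR KO tumours. For radiation, 3 of 10 members (Bcl2l1, Mcl1 and Bad) were higher on all 4 irradiated arrays than on all 4 untreated ones, against 12.4% of tested genes apart in either direction and 7.25% apart upwards. At an adjusted p under 0.05 against duplicate arrays with no fold threshold, a rule added after the data were seen, 4 of 10 members passed for radiation in TNFR KO (23.8% of tested genes) and 4 in WT (25.5%). By the same rule 5 passed between irradiated hosts (55.7%) and 6 between untreated hosts (50.2%). These comparisons share pools, so they do not count as separate evidence.

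Markers of other cell types differed between the pools as well. The summed neutrophil signal (4 of 5 listed genes matched, Cxcr2 below the filter) was 1014 to 1046 on TNFR KO irradiated, 862 to 904 on TNFR KO untreated, 23008 to 23782 on WT irradiated and 3495 to 3868 on WT untreated arrays. Fibroblast markers (5 of 5) summed to 9801 to 9839 on TNFR KO irradiated, 14597 to 14986 on TNFR KO untreated, 7049 to 7118 on WT irradiated and 4471 to 4570.2 on WT untreated arrays. Endothelial markers (5 of 5) summed to 1683 to 1817 on TNFR KO irradiated, 2188 to 2191 on TNFR KO untreated, 1209 to 1261 on WT irradiated and 1028 to 1063 on WT untreated arrays. Macrophage markers (5 of 5) summed to 3437 to 3502 on TNFR KO irradiated, 4892 to 5102 on TNFR KO untreated, 5378 to 5608.5 on WT irradiated and 2255 to 2373 on WT untreated arrays. Skeletal muscle markers (4 of 4, Myh4 below the filter) summed to 391.5 to 405 on TNFR KO irradiated, 932 to 996 on TNFR KO untreated, 579 to 754.5 on WT irradiated and 2406 to 2522 on WT untreated arrays. Keratinocyte markers (5 of 5, Krt14 and Krt10 below the filter) summed to 324 to 419.5 on TNFR KO irradiated, 2108.5 to 2362 on TNFR KO untreated, 190 to 240 on WT irradiated and 155 to 283 on WT untreated arrays, and all 3 tested were called higher in TNFR KO tumours. This sum was highest in the same pool as Bcl2 on 1443837_x_at. Xiap, Birc2 and the muscle sum were highest in WT untreated and lowest in TNFR KO irradiated tumours. The pools between did not follow 1 order: muscle was higher in TNFR KO untreated than in WT irradiated tumours, and Xiap and Birc2 were lower. Mitf had the same order of pools as Xiap and Birc2. The part of Mitf and of these cell types in the levels of Xiap, Birc2, Bcl2 and Cflar was not tested.

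**Figure D4:**
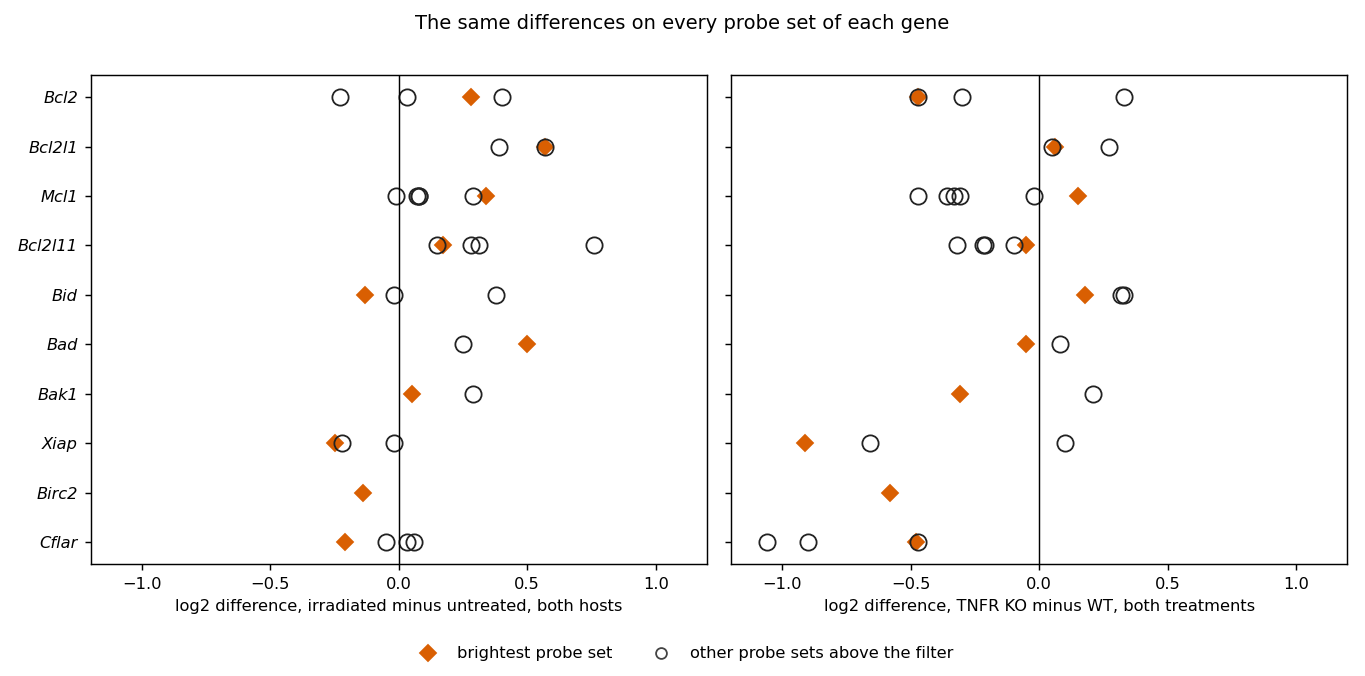
log2 differences (horizontal axes) of every probe set above the filter for each of the 10 genes, irradiated minus untreated on the left and TNFR KO minus WT on the right, each over both levels of the other factor; diamonds are the brightest probe sets and open circles the others. The 4 Cflar probe sets all lie below 0 between hosts, while Mcl1, Bcl2, Bak1, Bad and Xiap have probe sets on both sides.

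Probe sets of 1 gene therefore did not always give 1 direction. Of 33 member probe sets above the filter, those of Bcl2l1, Bcl2l11, Bad and Bak1 all had a positive difference for radiation over both hosts, and those of Xiap a negative one (-0.25 to -0.02). Between hosts, all probe sets of Bcl2l1 (0.05 to 0.27) and Bid (0.18 to 0.33) read higher and all of Bcl2l11 (-0.32 to -0.05) and Cflar (-1.06 to -0.47) read lower in TNFR KO tumours.

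Other apoptosis genes gave the setting for the 10 members. They were listed with earlier results of these data known: 49 genes, of which 41 were matched and 29 tested. For radiation over both hosts, 2 of 29 were called higher and 0 lower (1.90% of all tested genes were called), with a median of 0.16. Bbc3, the gene of the p53-induced BH3-only protein Puma, averaged 884 in irradiated and 338 in untreated TNFR KO tumours, and 819 in irradiated and 325 in untreated WT tumours (log2 difference 1.33 ± 0.16, adjusted p = 0.00209). Tnfrsf10b, which encodes the mouse TRAIL receptor, averaged 181 and 80.0 in irradiated and untreated TNFR KO tumours and 152 and 43.3 in WT tumours (1.27 ± 0.18, adjusted p = 0.00456). None of the 3 BH3-only members showed a difference of this size: on the brightest probe sets their radiation differences were 0.50 (Bad), 0.17 (Bcl2l11) and -0.13 (Bid).

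Between hosts 4 of the 29 were called higher and 3 lower, 24.1% of them, against 30.9% of all tested genes called, so their share was not above the background. Their median was 0.12 beside 0.09 for all genes. Among other IAPs and IAP antagonists, the giant IAP gene Birc6 was lower in TNFR KO tumours (-0.74 ± 0.17, adjusted p = 0.00807), as Xiap and Birc2 were, and Htra2, whose protease antagonises IAPs, was higher (0.53 ± 0.16, adjusted p = 0.0311). Of the apoptosome genes, Apaf1, the scaffold, was lower (-0.56 ± 0.16, adjusted p = 0.026) and Casp9, the caspase it activates, was higher (0.55 ± 0.16, adjusted p = 0.0259). Of death receptors and adaptors, Ripk3, the kinase of necroptosis, and Traf2, the adaptor that brings cIAPs to TNF receptors, were higher (0.82 ± 0.18 and 0.51 ± 0.16, adjusted p = 0.00733 and 0.0362), and Tnfrsf1b was lower.

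Birc3, the closest relative of Birc2 and an NF-κB target that encodes cIAP2, departed from Birc2. It averaged 129 ± 23.5 in TNFR KO irradiated, 217 ± 24.8 in TNFR KO untreated, 472 ± 49.3 in WT irradiated and 204 ± 26.4 in WT untreated tumours (SD, n = 2 technical arrays). Radiation gave -0.69 ± 0.16 in TNFR KO tumours (adjusted p = 0.0267, under 2-fold) and 1.15 ± 0.16 in WT tumours (adjusted p = 0.00614). The difference between the effects was -1.84 ± 0.22 (adjusted p = 0.0111), the only one of 29 called at 2-fold, where that of Birc2 was 0.07 ± 0.13 (95% interval -0.25 to 0.40).

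**Figure D5:**
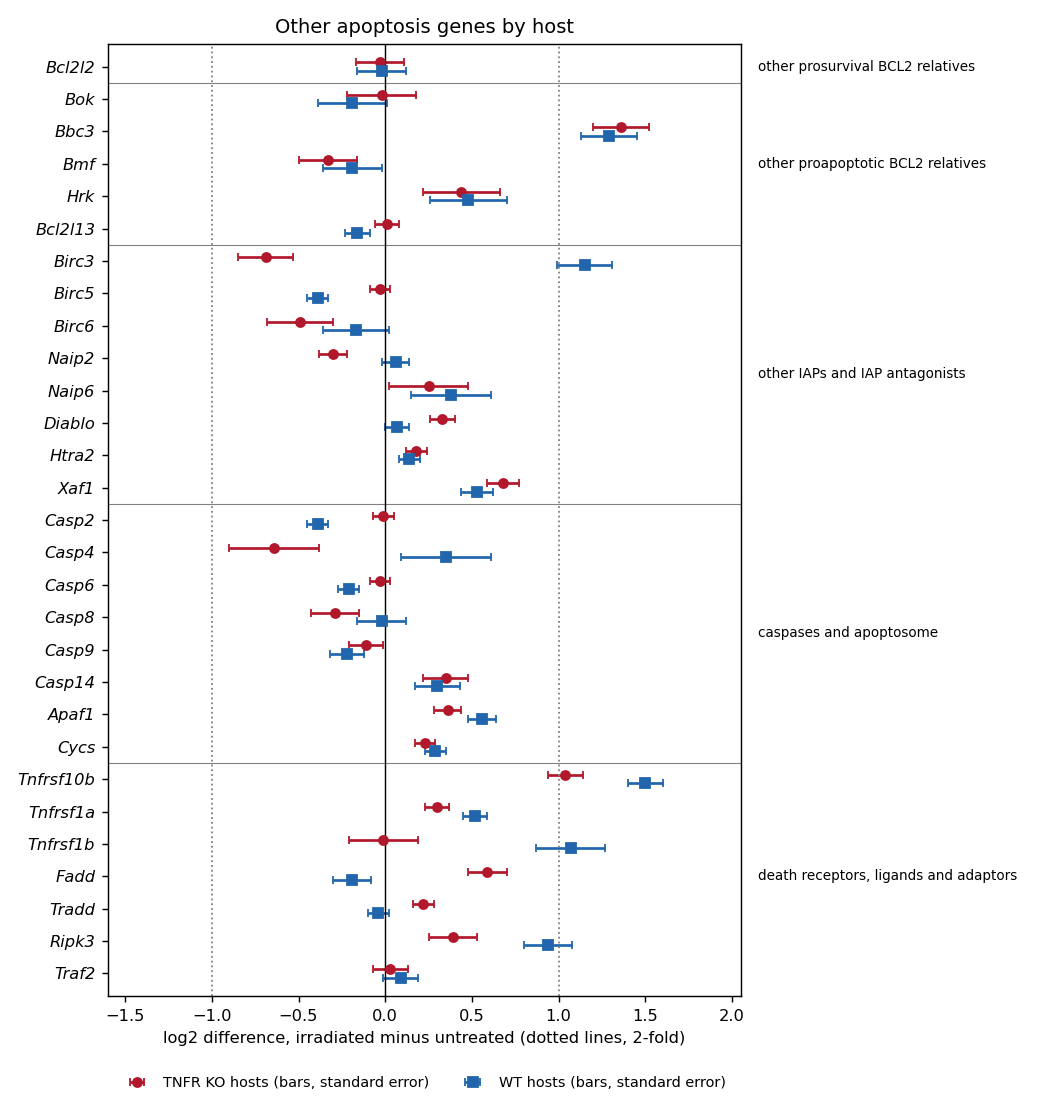
log2 difference between irradiated and untreated tumours (horizontal axis) of the 29 tested apoptosis genes outside the 10 members, in TNFR KO hosts (circles) and WT hosts (squares), with the standard error against duplicate arrays and grouped by role. Bbc3 and Tnfrsf10b lie beyond 2-fold in both hosts, and Birc3 lies on opposite sides of 0.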

How the data were processed

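RNA of whole tumours was pooled by group, and each of 4 pools was hybridised to 2 Affymetrix arrays, per the labels' protocols. Values as deposited are linear signal intensity; the submitters' processing notes name MAS5. Each array had a 2%-trimmed mean of 500, a scaling done before deposit. The precision of every value is limited by the number of arrays, and duplicates correlated at 0.975 to 0.981.

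Signals were transformed as log2(signal + 16). Of 45101 probe sets, 64 were controls, 9160 had no gene name and 932 had more than 1; of the 34945 with a single name, 34741 were found by gene identifier in a RefSeq table and 0 symbols changed. The brightest probe set stood for each of 18193 genes, and 11345 genes with a mean at or above that of the middle non-control probe set (log2 6.41, signal 68.8) were tested. R 4.3.3 and limma 3.58.1 fitted host and radiation on 4 pool means (1 residual and 9.52 prior degrees of freedom), where disagreement between hosts in the radiation effect sets the error, and single-pool comparisons on 8 arrays (4 residual and 1.99 prior degrees of freedom), which also required 2-fold. P-values of the latter cover the spread of technical duplicates only. The fits were also run on simulated arrays with known changes, larger than any member difference on a brightest probe set. That run checked the fitting steps only and does not test the calls given here.

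Named genes were all 10 members, up to 3 called genes of each wider list for radiation over both hosts, host over both treatments and the difference between radiation effects, the targeted receptors, Cdkn1a, Mdm2 and Ccng1, and the 3 genes nearest in profile to the widest-ranging member; genes flagged for a host-dependent radiation effect are added. Members and lists were chosen with earlier results of these data known. Alternatives were quantile normalization, median centring, pseudocount 64, no filter, the mean of probe sets, limma-trend, 8-array fits, other probe sets, a replicate block and leaving out each array. Figures used matplotlib 3.10.9.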

Additional observations from a re-analysis of the deposited data

Results flagged for a closer look

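On its brightest probe set, Cflar differed between the hosts in its response to 20 Gy by a direct test: -0.45 in TNFR KO tumours and 0.03 in WT tumours, a difference of -0.49 (adjusted p = 0.0403 in limma against duplicate arrays, 0.0572 in the limma fit over probe sets), under 2-fold. It passed without TNFR KO irradiated replicate 1 (adjusted p = 0.0468) and missed the threshold when any other array was left out (0.0835 to 0.115). Among the other apoptosis genes, Birc3 gave -0.69 in TNFR KO and 1.15 in WT tumours (difference -1.84, adjusted p = 0.0111). Fadd, the adaptor that recruits caspase-8, gave 0.59 in TNFR KO and -0.19 in WT tumours (0.78, adjusted p = 0.0365). Casp2, a caspase linked to DNA damage, gave -0.01 in TNFR KO and -0.39 in WT tumours (0.38, adjusted p = 0.0477), and Birc5, the mitotic IAP survivin, -0.03 in TNFR KO and -0.39 in WT tumours (0.37, adjusted p = 0.0474). These tests hold only the spread between duplicate arrays, and 9.55% of all tested genes passed at the same adjusted p.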

How the results depend on the processing

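With 1 pool a group, these limits hold throughout: no spread between mice is measured, and pool-level calls rest on 1 residual degree of freedom. For radiation over both hosts, 0 members were called, but 1 with pseudocount 64, 2 with limma-trend, 3 with a replicate block on the 8 arrays and 4 with 8 arrays as replicates. Between hosts 3 members were called, but 1 with quantile normalization, 0 with no filter on dim genes (3 with an unadjusted p under 0.05 in limma), 5 with the replicate block and 5 with 8 arrays as replicates. Same-numbered arrays did not deviate together (correlations of -0.03 to 0.05), so the numbers do not pair them, and the last 2 fits treat technical duplicates as replicates. Leaving out 1 array gave 1 to 2 members between hosts, and 0 to 1 between untreated hosts, where Xiap passed 2-fold without TNFR KO untreated replicate 1 or WT untreated replicate 2; it also passed with median-centred arrays (1 member, -1.19). Without a fold threshold, a rule added after the data were seen, 4 members passed for radiation in TNFR KO, 4 in WT, 6 between untreated hosts, 5 between irradiated hosts and 1 for the difference between effects.

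Of all genes, 216 were called for radiation over both hosts, against 2 with quantile normalization, 510 with pseudocount 64, 0 with no filter (1998 with an unadjusted p under 0.05 in limma), 329 with the mean of probe sets, 780 with limma-trend, 1771 with the replicate block, 2471 with 8 arrays as replicates, and 0 to 117 without 1 array (0 when WT untreated replicate 1 was left out, with 1555 at an unadjusted limma p under 0.05). Between hosts 3504 were called, against 0 with no filter (4487 unadjusted), 6106 with the replicate block, 6446 with 8 arrays as replicates and 2034 to 2904 without 1 array. Pseudocount 64 left 102 of 155 for radiation in TNFR KO and 174 of 278 in WT. The mean of probe sets left 584 of 943 between untreated and 584 of 933 between irradiated hosts. Leaving out 1 array gave 161 to 204 of 251 for the difference between effects. With no fold threshold the 5 counts were 2701, 2894, 5696, 6316 and 1084. Median centring moved the median of all genes by -0.144 for radiation over both hosts, -0.258 in WT, -0.196 between untreated hosts and 0.228 for the difference between effects, and the share of calls that were higher to 50.8% (81.5% as reported), 55.6% (91.7%), 10.3% (24.8%) and 38% (7.17%); between hosts over both treatments it was 19.4% (38.9%). Quantile normalization gave 100% and pseudocount 64 gave 66.7% higher for radiation over both hosts (81.5%), and pseudocount 64 gave 75.5% in TNFR KO (64.5%).

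Of 661 alternative values of 40 member results, 596 kept their direction and called status, 20 lost a call, 22 gained one and 23 turned. In single-pool comparisons a call also needed 2-fold, and no member was called there as reported. A single-pool value that only lost its adjusted p under 0.05, as Cflar did between radiation effects, was therefore counted as kept. The count does not measure how stable those comparisons were. Turned radiation values were Bcl2 on 1443837_x_at (-0.23), Mcl1 on 1416880_at (-0.01), Bid with the mean of probe sets (0.08) and on 1447873_x_at (0.38), Bak1 with median centring (-0.10), and Cflar on 1425687_at (0.03) and 1449317_at (0.06). Turned host values over both treatments were Bcl2 on 1443837_x_at (0.33), Bcl2l1 with median centring (-0.02), Mcl1 with the mean of probe sets (-0.22) and on its 5 other probe sets (-0.47, -0.02, -0.31, -0.33, -0.36), Bcl2l11 with quantile normalization (0.02) and without WT untreated replicate 1 (0.01; -0.12 to 0.01 over the 8 arrays left out in turn), Bad with the mean of probe sets (0.01) and on 1416583_at (0.08), Bak1 on 1425716_s_at (0.21) and Xiap on 1450232_at (0.10). Between untreated hosts the mean of probe sets turned Bcl2 (0.07) and Mcl1 (-0.09). Causes were not tested. Between hosts over both treatments, Xiap, Birc2, Bcl2 and Cflar kept their direction under every scaling tried.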

Other observations

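The 3 tested genes whose centred pool means lay closest to those of Xiap among the other tested genes were Galnt7 (root-mean-square distance 0.0127 on the log2 scale), Ltn1 (0.0213) and Macir (0.0255), over 4 pools. Galnt7 averaged 304 ± 58 in TNFR KO irradiated, 345 ± 18.9 in TNFR KO untreated, 539 ± 5.66 in WT irradiated and 691 ± 43.5 in WT untreated tumours (SD, n = 2 technical arrays). With 4 pools and this many genes, close profiles are easily found.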
